A study of Mus musculus with 159 samples.

Results

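Small leucine-rich proteoglycans are secreted matrix proteins built on a leucine-rich core, most of them carrying sugar chains of the chondroitin, dermatan or keratan sulfate type. *Dcn* encodes decorin and *Bgn* encodes biglycan, close relatives that bear chondroitin or dermatan sulfate, and *Lum* encodes lumican, which bears keratan sulfate. Decorin and lumican bind collagen fibrils and limit how thick they grow, decorin and biglycan bind TGF-beta, and soluble biglycan can act on Toll-like receptors of macrophages. In the injured liver these genes are known as products of stellate cells and portal fibroblasts.

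The 3 genes *Dcn*, *Lum* and *Bgn* were taken by symbol, as 3 rows of a deposited table of 607 genes, and all 3 were found. Of the other small leucine-rich proteoglycans searched for, the table held 1, *Prelp*, which encodes prolargin. In the mouse genome (GRCm38.p6, RefSeq), *Dcn* lies on chromosome 10 from 97479500 to 97518163 and *Lum* on the same chromosome from 97565501 to 97572703. The pair is 47337 bases apart with 0 listed genes between them. *Bgn* lies on chromosome X from 73483601 to 73495936, and *Prelp* on chromosome 1 from 133910304 to 133930102.

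The values came from 159 segments of fixed sections of 4 mouse livers, profiled on the GeoMx platform, in which barcoded RNA probes are released by light from 1 masked area at a time and counted by sequencing. Within regions of interest (ROIs) picked by hand, staining for DESMIN, MARCO and IBA1 set 4 kinds of segment. Des+ segments (n = 41) hold DESMIN-stained stellate cell areas, Marco+IBA+ (n = 45) and Marco-IBA+ (n = 24) segments hold macrophage areas with and without MARCO, and Else segments (n = 49) hold the remainder. ROIs were classed as MarcoHi or MarcoLo by their MARCO signal, and the question asked of the Des+ segments was how stellate cell transcripts differ between the classes. All mice were wild-type C57BL/6 of either sex and were given repeated doses of carbon tetrachloride (CCl4) to cause fibrosis. Some of them also received bone marrow-derived macrophages positive for MARCO, and the others saline. The sample labels call livers 1 and 3 treated CCl4 and livers 2 and 4 control, and do not say which livers received cells. No liver is assigned to transfer here, and none of the 4 is an uninjured control.

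The deposited values are counts scaled so that the 75th percentile (Q3) of the 607 genes is 26.1 in every segment, and the counts behind them could be recovered. Des+ segments held 1448 to 16715 counts (median 3675), Else segments 75571 to 448875, Marco+IBA+ segments 3106 to 27341 and Marco-IBA+ segments 1065 to 4457. No recovered count was below 1, so a count of 1 marks the floor, and in a Marco-IBA+ segment a median of 47.4% of genes stood there. Of 10 stellate cell markers 8 were in the table. All 8 stood higher in Des+ than in Else segments and 7 were called, where 36.6% of all genes were called higher. *Des* itself, the gene for the stained protein, was not called, with a log2 difference of 0.38 (SE 0.17, adjusted p = 0.0544 by limma). Relative to Marco+IBA+ segments, *Des* in Des+ segments differed by 0.71, 0.40, 0.18 and -0.04 (livers 1 to 4, log2 scale). Relative to the shallow Marco-IBA+ segments it differed by 0.30, -0.59, -0.40 and -1.12. The table holds genes selected by the authors for stellate cells, and in it were 0 markers of hepatocytes, endothelial cells or cholangiocytes and 1 of 13 macrophage markers (*Marco*). The liver was taken as the replicate. Segments were averaged per liver, segment type and ROI class, and limma was run on log2 of the mean plus 1 with liver as a block. Adjusted p is the Benjamini-Hochberg value over all 607 genes, and a gene was called below 0.05. Probes of different genes are not comparable in level, so each gene is compared with itself.

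All 3 genes were highest in Des+ segments. Over the 41 Des+ segments the *Dcn* value ran from 48.4 to 414.6 with a median of 173.8, against a median of 59.4 in Marco-IBA+, 47.8 in Marco+IBA+ and 17.5 in Else segments. On the log2 scale the 4 livers stood at 7.54, 7.92, 7.60 and 7.44 in Des+ and at 4.49, 3.94, 4.43 and 4.49 in Else segments (livers 1 to 4). The groups of livers did not overlap, and the lowest Des+ liver was also above every liver of both macrophage segment types. A gap of this kind between Des+ and Else was seen for 33.1% of the 607 genes, between Des+ and Marco+IBA+ for 30% and between Des+ and Marco-IBA+ for 11.4%.

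*Dcn* had the largest Des+ minus Else difference of the 607 genes, 3.28 on the log2 scale (SE 0.18, adjusted p = 3.19e-13 by limma, 9.74-fold), and was higher in 4 of 4 livers. *Bgn* ranked 3 with 2.97 (SE 0.15, adjusted p = 3.63e-14 by limma, 7.84-fold). *Lum* was higher by less, 1.36 (SE 0.16, adjusted p = 1.42e-07 by limma, 2.57-fold), and ranked 54. All 3 were called, where 36.6% of genes were called higher in Des+ than in Else. *Prelp* was also called, at 2.30 (SE 0.20, adjusted p = 6.02e-10 by limma), and ranked 10.

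For *Bgn* the livers lay close together in Des+ segments once both ROI classes were averaged, at 7.15, 7.15, 7.14 and 7.11 (standard deviation 0.02 over 4 livers). Within a class they were further apart, with a standard deviation of 0.15 in MarcoHi and 0.14 in MarcoLo ROIs. Liver 1 was the highest in MarcoHi (7.02) and the lowest in MarcoLo ROIs (7.27). In Else segments the livers stood at 4.30, 3.96, 4.33 and 4.07, again averaged over the classes. *Lum* stood at 4.67, 4.72, 4.75 and 4.52 in Des+ segments and at 3.35, 3.13, 3.71 and 3.04 in Else segments. Neither gene showed any overlap between the livers' Des+ and Else levels. The lowest Des+ liver was above the highest liver of each macrophage segment type for both genes too.

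**Figure D1:**
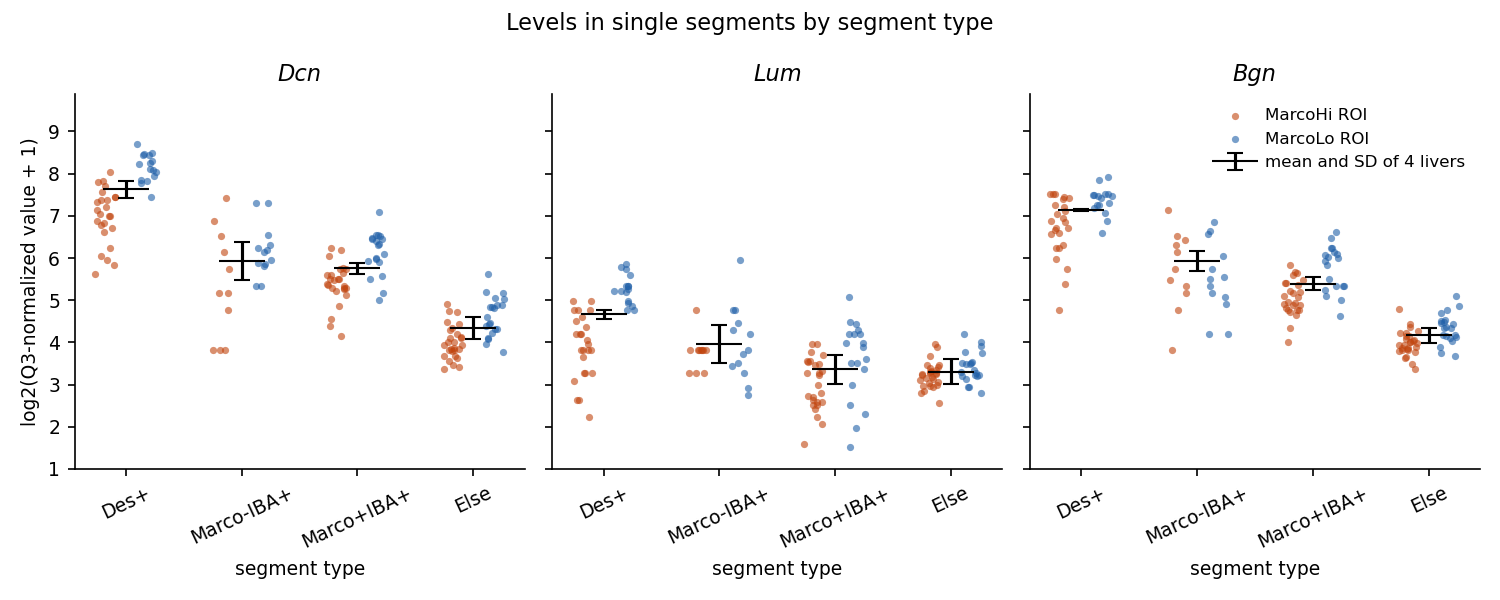
Levels of *Dcn*, *Lum* and *Bgn* in all 159 segments by segment type (horizontal axis), as log2 of the Q3-normalized value plus 1 (vertical axis). Points are single segments coloured by ROI class, and black bars are the mean and SD of 4 liver values, so that Des+ stands highest for each gene (7.63, 4.67 and 7.14). Levels are not comparable between the 3 panels.

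Against the macrophage segments the differences were smaller but were called for each gene. Relative to Marco+IBA+ segments, *Dcn* was higher by 1.87 (SE 0.18), *Bgn* by 1.74 (SE 0.15) and *Lum* by 1.30 (SE 0.16), with adjusted p from 6.97e-10 to 3.78e-07 by limma, where 33.8% of genes were called higher. Relative to Marco-IBA+ segments, *Dcn* was higher by 1.70 (SE 0.18), *Bgn* by 1.20 (SE 0.15) and *Lum* by 0.70 (SE 0.16, adjusted p = 0.00124 by limma), where 18.1% were called higher. In MarcoHi ROIs alone the last comparison was not called for *Lum* (0.41, adjusted p = 0.165) or *Bgn* (0.66, adjusted p = 0.0742).

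*Dcn* and *Bgn* were also higher in both macrophage segment types than in Else segments. In Marco+IBA+ segments *Dcn* was higher by 1.41 (SE 0.18, adjusted p = 8.73e-07 by limma) and *Bgn* by 1.23 (SE 0.15, adjusted p = 2.57e-07), where 19.1% of genes were called higher. *Lum* was at 0.06 (SE 0.16, adjusted p = 0.803), a value whose sign changed in 5 of the alternatives and without liver 2. In Marco-IBA+ segments 49.9% of genes were called higher than in Else and the median gene stood at 0.35. *Bgn* was at 1.77 (SE 0.15), *Dcn* at 1.58 (SE 0.18) and *Lum* at 0.66 (SE 0.16), all called.

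The *Lum* level in Marco-IBA+ segments rests on very few counts. Of 24 such segments 13 held 1 count of *Lum*, 9 of them among the 11 from MarcoHi ROIs, where the median count was 1. One count in these shallow segments is worth up to 13.0 normalized units, more than the 8.60 that was the median of *Lum* in Else segments. With the 10th percentile of each segment subtracted, the *Lum* difference between Marco-IBA+ and Else was 0.19 (adjusted p = 0.593). *Dcn* had 3 and *Bgn* 1 of the 24 segments at a count of 1.

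Between the macrophage segment types, *Lum* was lower in Marco+IBA+ than in Marco-IBA+ by -0.60 (SE 0.16, adjusted p = 0.00457 by limma) and *Bgn* by -0.54 (SE 0.15, adjusted p = 0.00459). *Dcn* was at -0.17 (SE 0.18, adjusted p = 0.458). Here 35.6% of genes were called lower and the median gene stood at -0.23. By edgeR on the recovered counts neither *Lum* (-0.35, adjusted p = 0.277) nor *Bgn* (-0.18, adjusted p = 0.424) was called. With the 10th percentile of each segment subtracted, the sign of *Lum* was reversed (0.27, adjusted p = 0.482 by limma). *Bgn* was then at -0.45 (adjusted p = 0.125 by limma), not called.

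The ROI class divided the Des+ segments most clearly for *Dcn*. In liver 1 the *Dcn* value had its lowest, median and highest at 60.8, 115 and 159 in MarcoHi ROIs and at 174, 310 and 415 in MarcoLo ROIs. In liver 2 it ran over 139, 215 and 261 in MarcoHi ROIs and was 274, 297 and 306 in the 3 MarcoLo segments. In liver 3 it ran over 65.2, 126 and 172 in MarcoHi ROIs and was 218, 316, 349 and 356 in the 4 MarcoLo segments. In each of these livers every MarcoHi segment lay below every MarcoLo segment. In liver 4 the *Dcn* value ran over 48.4, 131 and 188 in MarcoHi ROIs and was 229, 246 and 263 in the 3 MarcoLo segments, again without overlap. Such a separation in 3 or more livers was seen for 0.165% of genes, which is 1 gene of 607, *Dcn* itself. Separation in at least 1 liver was seen for 7.08% of genes.

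For *Lum* the highest MarcoHi segment of liver 1 reached 30.4, above its lowest MarcoLo segment at 26.1. In liver 2 the highest MarcoHi and the lowest MarcoLo segment were equal, at 30.4. In liver 3 the *Lum* value ran over 5.21, 15.6 and 26.1 in MarcoHi ROIs and was 29.3, 37.7, 52.1 and 54.0 in MarcoLo ROIs. In liver 4 it ran over 3.72, 16.3 and 23.5 and was 26.1, 27.9 and 39.1. The classes thus did not overlap in livers 3 and 4. Over all livers the median was 14.5 in 25 MarcoHi and 37.1 in 16 MarcoLo segments, which stood on median counts of 3 and 12. A single count of *Lum* was recovered in 6 of the 25 MarcoHi segments and in 0 of the 16 MarcoLo segments.

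*Bgn* overlapped between the classes in livers 1, 2 and 3. In liver 1 its value ran over 26.1, 134 and 183 in MarcoHi ROIs and over 117, 151 and 183 in MarcoLo ROIs. In liver 4 it ran over 41.0, 94.8 and 169 and was 175, 181 and 183 in the 3 MarcoLo segments, without overlap. The median over all livers was 115 in MarcoHi and 172 in MarcoLo segments.

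**Figure D2:**
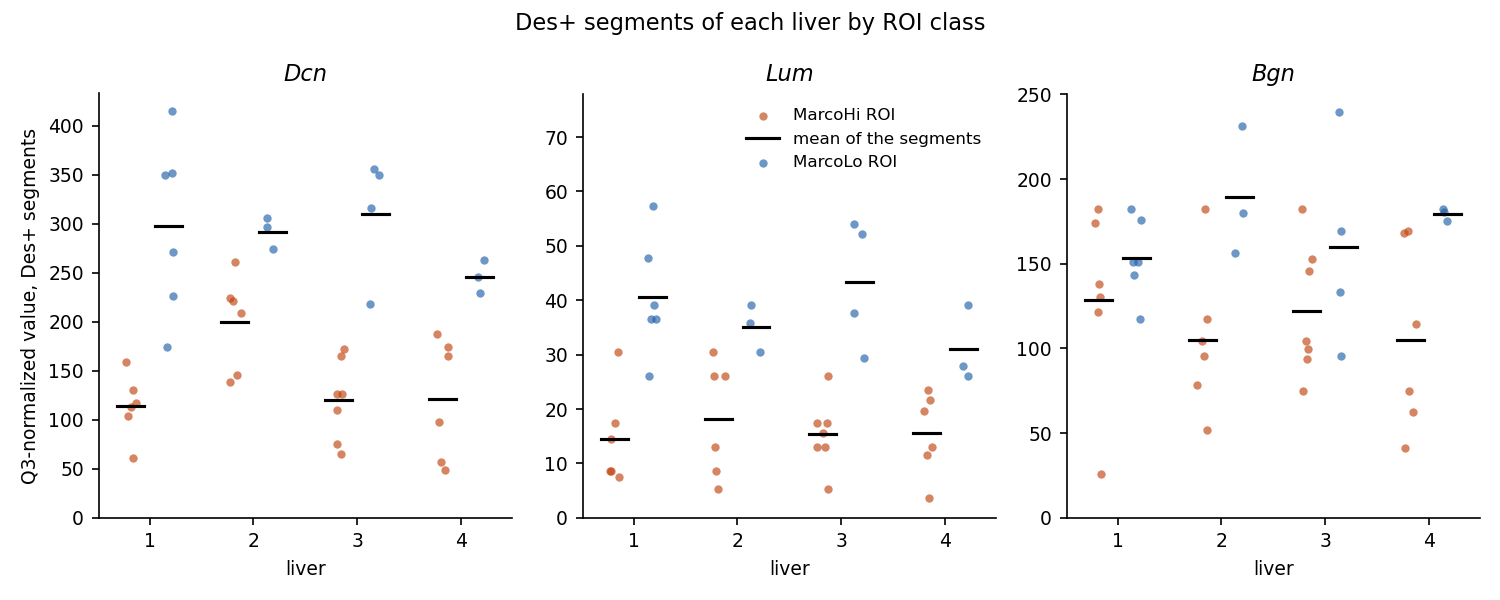
Q3-normalized values (vertical axes, each gene on its own scale from 0) of *Dcn*, *Lum* and *Bgn* in the 41 Des+ segments of livers 1 to 4 (horizontal axis). Points are segments of MarcoHi (orange) or MarcoLo (blue) ROIs and bars are their means. For *Dcn* the orange points lie below the blue points in all 4 livers, for *Lum* in livers 3 and 4 and for *Bgn* in liver 4.

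Averaged per liver, *Dcn* was lower in MarcoHi than in MarcoLo Des+ segments by -1.38, -0.54, -1.36 and -1.01 (livers 1 to 4, log2 scale). *Lum* was lower by -1.42, -0.91, -1.43 and -0.96, and *Bgn* by -0.25, -0.84, -0.38 and -0.77. Each gene was thus lower in 4 of 4 livers, which held for 12.9% of genes. For *Bgn* in liver 1, 1 MarcoHi segment stood at 26.1 on 3 counts, and the other 5 at 122 to 183. The MarcoLo segments of that liver ran from 117 to 183. The part of the low segment in the *Bgn* difference was not tested. Over all livers the difference was -1.18 for *Lum* (SE 0.20, adjusted p = 0.000623 by limma), the lowest value of the 607, and -1.07 for *Dcn* (SE 0.21, adjusted p = 0.000856), the third lowest. Both were among the 3.79% of genes called lower. The SE of this fit rests mostly on a spread shared by all genes. It leaves out the gap between the pairs of livers with the same label. *Bgn* was at -0.56 (SE 0.20, adjusted p = 0.105 by limma) and was not called. It was called in 3 of the alternatives, among them edgeR (-0.51, adjusted p = 0.0213).

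The calls of *Dcn* and *Lum* depended on which liver was left out, while the sizes moved little. Each such fit leaves 1 liver in 1 of the label pairs, so a gene's own spread then comes from the other pair. Without liver 2 or without liver 4 neither was called, without liver 1 or liver 3 both were, and over the 4 fits with 1 liver left out *Dcn* stayed between -1.19 and -0.96 and *Lum* between -1.19 and -1.17 (adjusted p up to 0.197). Without 6 Des+ segments of fewer than 2000 counts, all of them from MarcoHi ROIs, the differences were -1.07 and -1.12 (adjusted p = 0.0974 for both).

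In the livers labelled treated CCl4, where 1.81% of genes were called lower, *Dcn* was at -1.37 and *Lum* at -1.43, both called, and *Bgn* at -0.32 (SE 0.29, adjusted p = 0.686 by limma). In the livers labelled control, where 0% of genes were called lower, *Dcn* was at -0.78, *Lum* at -0.93 and *Bgn* at -0.80 (SE 0.29 for each, adjusted p from 0.221 to 0.351). That count of 0 called genes stood against 64 genes with an unadjusted p below 0.05 in the same fit, and edgeR and DESeq2 also called 0. The difference between the pairs of livers was -0.59 for *Dcn*, -0.50 for *Lum* and 0.49 for *Bgn* (SE 0.41 for each, adjusted p from 0.912 to 0.946), so a difference between the pairs was not detected for any of them. With any 1 of the 4 livers left out, *Dcn* and *Lum* were not called in the livers labelled treated CCl4 (adjusted p from 0.0615 to 0.133).

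The differences between ROI classes of the 3 genes were also set against each other within each liver, and that of *Bgn* was the smallest in livers 1, 3 and 4. Subtracting the *Bgn* difference from the *Lum* difference within each liver left -1.17, -0.06, -1.05 and -0.19, lower in 4 of 4 livers (mean -0.62, SD 0.57; exact two-sided sign-flip permutation p = 0.125, the smallest that 4 livers allow). The same subtraction left -1.12, 0.30, -0.98 and -0.24 for *Dcn* (p = 0.375 by the same exact test). For *Lum* against *Dcn* it left -0.05, -0.36, -0.07 and 0.05 (p = 0.375 by the same exact test). In 9 such comparisons, 3 in each of 3 segment types, none could pass a threshold of 0.05.

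Other measures moved with the ROI class in Des+ segments. The total count had a median of 3089 in MarcoHi and 4602.5 in MarcoLo segments, and within livers and classes the total correlated with the log2 value at r = 0.10 for *Dcn*, 0.29 for *Lum* and 0.24 for *Bgn* (41 segments, a description). The summed value of the 8 stellate cell markers ran from 59.6 to 321.6 (median 206) in MarcoHi and from 204 to 365 (median 289) in MarcoLo segments. All 8 stood lower in MarcoHi, with a median of -0.27 against 0.02 for all genes. Of the 8, 1 was called, *Reln*, at -1.04 (SE 0.20, adjusted p = 0.00105 by limma), where 3.79% of all genes were called lower. *Des* was at -0.21 (adjusted p = 0.661). *Marco*, which encodes the scavenger receptor used for the classing and is made by macrophages, was higher by 1.12 (SE 0.21, adjusted p = 0.000856), with values of 4.35 to 69.5 in MarcoHi and 3.26 to 18.6 in MarcoLo segments. Of the 6 smooth muscle markers 3 were present, *Des* among them, with a summed value of 22.8 to 156 in MarcoHi and 11.6 to 56.5 in MarcoLo segments. The contractile genes *Tagln* and *Myl9* were called higher, by 0.86 and 0.85 (adjusted p = 0.0199 and 0.0073 by limma). Only 4 of 607 genes were called higher. Of 11 portal fibroblast markers 2 were present, *Dpt* (-0.15) and *Eln* (0.16), and neither was called. The part of these measures in the results on *Dcn* and *Lum* was not tested. Fewer cells of a type within a mask and less RNA per cell cannot be told apart in such segments.

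Outside the DESMIN mask *Dcn* and *Bgn* were lower in MarcoHi ROIs as well. In Else segments the median *Dcn* value was 14.2 in 28 MarcoHi and 23.3 in 21 MarcoLo segments, with ranges of 9.29 to 29.2 and 12.8 to 48.0 that overlapped. Per liver the log2 difference was -0.88, -0.23, -0.75 and -0.38. Over all livers it was -0.56 (SE 0.04, adjusted p = 0.000163 by limma), the second lowest of 607 genes. *Bgn* differed by -0.48, -0.05, -0.42 and -0.25 and over all livers by -0.30 (SE 0.04, adjusted p = 0.00426 by limma), the tenth lowest, and 3.29% of genes were called lower. Both were lower in 4 of 4 livers, as were 13.3% of genes. The fit gave each pair of livers with the same label its own difference, so its small SE holds the spread within pairs and not the gap between livers 1 and 3 and livers 2 and 4. Without liver as a block neither gene was called (adjusted p = 0.597 and 0.297).

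*Lum* barely differed in Else segments, with medians of 8.44 and 9.17 on median counts of 115 and 144. Its difference per liver was -0.29, 0.01, -0.19 and -0.06, and over all livers -0.13 (SE 0.04, adjusted p = 0.109 by limma). The difference between ROI classes was larger in Des+ than in Else segments by -1.05 for *Lum* (SE 0.20, adjusted p = 0.00286 by limma on the 4 per-liver differences). That was the third lowest value of 607 genes, 1.65% of which were called lower. For *Dcn* the same contrast gave -0.51 (SE 0.20, adjusted p = 0.24) and for *Bgn* -0.26 (SE 0.22, adjusted p = 0.679), not called. Thus the difference of *Lum* was larger in Des+ than in Else segments by limma, and a different size in these segment types was not shown for *Dcn* or *Bgn*. The call of *Lum* held in 15 of 16 alternatives. It was lost with the 10th percentile of each segment subtracted (-1.32, adjusted p = 0.149 by limma). The plot of Des+ against Else differences over all genes shows *Lum* far to the left near 0 on the vertical axis and *Dcn* low on both axes.

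**Figure D3:**
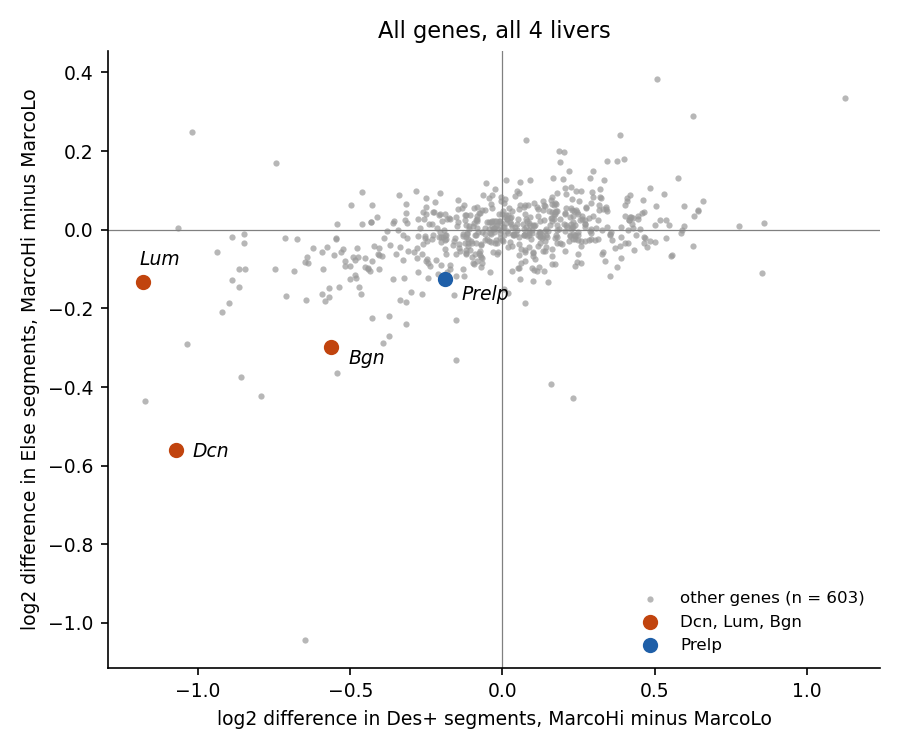
Difference between MarcoHi and MarcoLo ROIs for all 607 genes in Des+ segments (horizontal axis) and in Else segments (vertical axis), both as log2 differences from the fits over 4 livers. Orange points are *Dcn* (-1.07 and -0.56), *Lum* (-1.18 and -0.13) and *Bgn* (-0.56 and -0.30), the blue point is *Prelp* (-0.19 and -0.12), and grey points are the other genes.

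In Marco+IBA+ segments the 3 genes stood among the 10 lowest differences between ROI classes, but none was called. *Dcn* differed by -1.14, -0.72, -0.55 and -0.09 per liver, with -0.63 over all (SE 0.17, adjusted p = 0.287 by limma). *Bgn* differed by -1.08, -0.63, -0.78 and -0.0041, with -0.63 over all (SE 0.15, adjusted p = 0.237), and *Lum* by -1.12, -1.03, -0.06 and 0.02, with -0.55 over all (SE 0.23, adjusted p = 0.46). Only 0.165% of genes were called lower by limma, 12.9% were lower in 4 of 4 livers, and *Dcn* and *Bgn* were among the latter. By edgeR on summed counts all 3 were called, at -0.61 for *Dcn*, -0.65 for *Bgn* and -0.65 for *Lum* (adjusted p = 2.03e-06, 2.03e-06 and 0.00985). edgeR called 30 genes in this comparison, in either direction, where limma called 3. In liver 4 the means of its 7 MarcoHi and 2 MarcoLo segments were near equal for all 3 genes, and for *Lum* those of liver 3 were too. The contrast of Des+ against Marco+IBA+ differences was -0.45 for *Dcn*, -0.63 for *Lum* and 0.06 for *Bgn* (adjusted p from 0.502 to 0.956), with 0.165% of genes called lower.

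**Figure D4:**
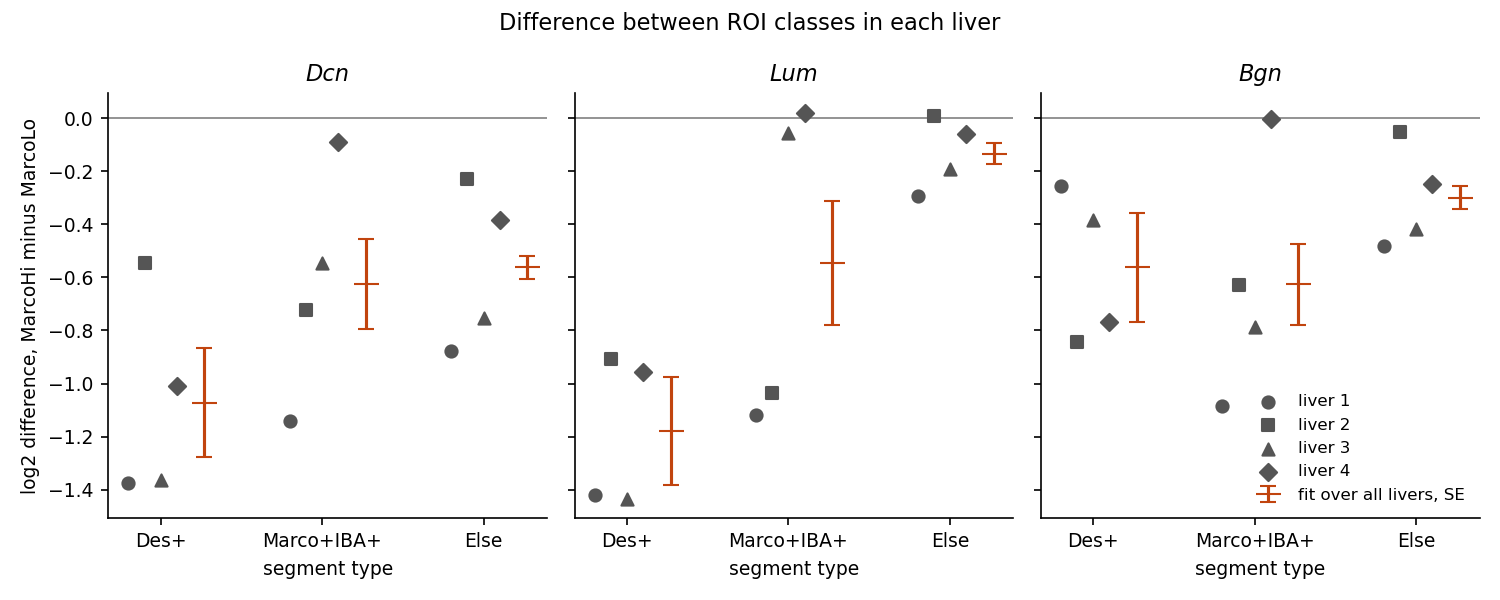
Log2 difference between MarcoHi and MarcoLo ROIs (vertical axis) of *Dcn*, *Lum* and *Bgn* by segment type (horizontal axis). Grey symbols are livers 1 to 4 and orange bars the fit over all livers with its SE. *Dcn* is below 0 in 4 of 4 livers in each type shown, and *Lum* lies near 0 in Else segments (-0.29 to 0.01).

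In Marco-IBA+ segments the comparison could be made in livers 1, 3 and 4, with 11 MarcoHi segments, 1 of them from liver 1. *Dcn* was at -0.36, *Lum* at -0.35 and *Bgn* at 0.40 (SE 0.34, 0.38 and 0.43, adjusted p from 0.619 to 0.662 by limma), where 0% of genes were called lower. That 0 stood beside 78 genes with an unadjusted p below 0.05. edgeR called 1 gene and DESeq2 0. The MarcoHi segments held 1065 to 2083 counts each, and the part of depth in this result was not tested.

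By limma no difference between the liver labels was called for the 3 genes. Between livers labelled treated CCl4 and control, *Dcn* differed by -0.12, *Lum* by 0.09 and *Bgn* by 0.01 in Des+ segments (adjusted p from 0.947 to 0.989 by limma). In Else segments the differences were 0.25 for *Dcn* (SE 0.17), 0.44 for *Lum* (SE 0.13) and 0.30 for *Bgn* (SE 0.08), with adjusted p from 0.195 to 0.362. DESeq2 called *Lum* (0.41, adjusted p = 0.00265) and *Bgn* (0.26, adjusted p = 0.0245) there, together with 114 genes in all, where limma and edgeR called 0 (140 and 153 genes had an unadjusted p below 0.05). Each label holds 2 livers, so the spread within a label rests on 2 animals.

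*Dcn* and *Bgn* followed each other closely across the means of livers, segment types and ROI classes, and *Lum* less so. Over the 31 means of a liver, segment type and ROI class, the Pearson correlation of *Dcn* with *Bgn* was 0.95, and *Dcn* was the gene nearest to *Bgn* of all 606. *Dcn* itself was nearest to *Ecm1* (0.96), which encodes an extracellular matrix protein, then *Col3a1* (0.95), *Bgn*, *Col14a1* (0.94) and *Pam* (0.93). The other genes nearest to *Bgn* were *Abcc9*, *Colec11*, *Igfbp7* and *Pam* (all 0.94). *Lum* was nearest to *Postn* (0.91), which encodes the matrix protein periostin, followed by *Col1a1* (0.90), *Fgfr2* (0.90), *Reln* (0.88) and *Nr1h5* (0.87). Its correlation was 0.81 with *Dcn*, rank 30, and 0.73 with *Bgn*, rank 54. These points share livers and the segment types, so the correlations are descriptions and carry no p.

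Within Des+ segments this division was seen only after the mean of each liver and ROI class was subtracted. Before that, *Dcn* correlated at 0.67 with *Bgn* and at 0.72 with *Lum*. After the subtraction *Dcn* and *Bgn* correlated at 0.71 over 41 segments, at 0.74 over the 25 MarcoHi and 0.53 over the 16 MarcoLo segments. *Dcn* and *Lum* correlated at 0.41 and *Lum* and *Bgn* at 0.31. The nearest genes to *Dcn* were *Ecm1* (0.76), *Colec11* (0.71), *Igfbp7* (0.71), *Bgn* and *Col3a1* (0.69), and those to *Bgn* were *Colec11* (0.74), *Dcn*, *Col3a1* (0.71), *Pam* (0.70) and *Igfbp7* (0.69). For *Lum* the highest were *Ctsd* (0.53), *Ergic3* (0.53), *Cxcl12* (0.52), *Atraid* (0.50) and *Gnai2* (0.49), lower values that rest on a median of 7 counts of *Lum* per segment. Segments of the same ROI showed weak relations between masks within liver and class: Des+ and Marco+IBA+ values correlated at 0.37 for *Dcn*, 0.36 for *Bgn* and 0.06 for *Lum* (37 ROIs), and Des+ and Else values at 0.18, -0.18 and 0.03 (41 ROIs).

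**Figure D5:**
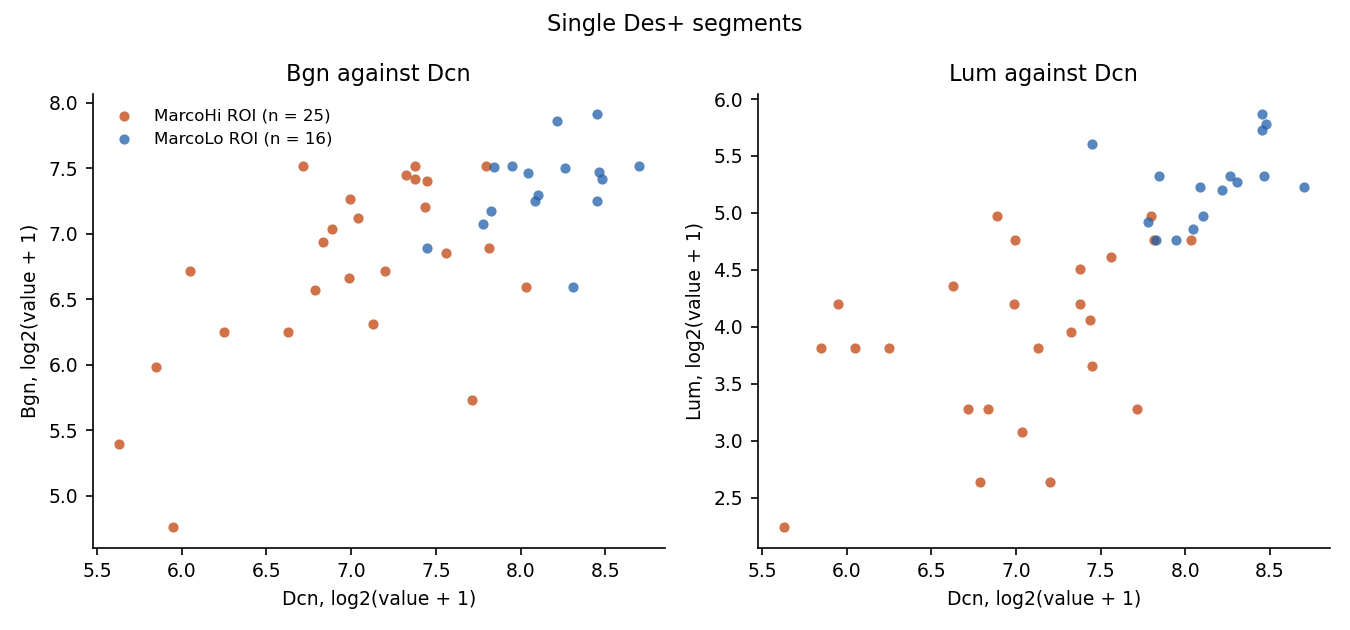
*Bgn* (left) and *Lum* (right) against *Dcn* in single Des+ segments, all axes as log2 of the Q3-normalized value plus 1. Points are 25 segments of MarcoHi and 16 of MarcoLo ROIs. Over all 41 segments the correlation is 0.67 for *Bgn* and 0.72 for *Lum*, and after the liver and ROI class means are subtracted it is 0.71 and 0.41.

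*Prelp*, the remaining family member in the table, was also higher in Des+ segments, and no difference between ROI classes was detected for it. Its Des+ values had a median of 43.5 in MarcoHi and 44.7 in MarcoLo segments, and its log2 differences per liver were 0.10, 0.32, -0.31 and -0.87 (over all -0.19, SE 0.22, adjusted p = 0.724 by limma). Livers 1 and 2 stood higher in MarcoHi ROIs and livers 3 and 4 lower. In Else segments it was at -0.12 (SE 0.04, adjusted p = 0.111).

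Of the genes that build the sugar chains of these proteoglycans, 3 of 32 were in the table: *Chst15*, a chondroitin sulfotransferase, *Dse*, the epimerase that makes dermatan sulfate, and *Papss2*, which makes the sulfate donor. *Chst15* (0.98) and *Dse* (0.95) were called higher in Des+ than in Else segments, and *Papss2* was called lower (-0.93). Of all 607 genes 222 were called higher and 172 lower there. Between ROI classes in Des+ segments *Chst15* was at -0.68 (adjusted p = 0.0729), *Dse* at -0.29 and *Papss2* at -0.11. By limma 0 of the 3 were called, where 3.79% of all genes were called lower. *Chst15* was called by edgeR (-0.80, adjusted p = 0.0306), with means of log2 values (adjusted p = 0.0402), with genes of low count left out (adjusted p = 0.0131) and without liver 3 (adjusted p = 0.0143). The median of the 3 was -0.29, against 0.02 for all genes.

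The fibrillar collagens and the proteins that build fibrils with them had 19 of 42 genes in the table. Higher in Des+ than in Else segments were 18 of 19, all called, against 36.6% of all genes, and *Fn1*, which encodes fibronectin, was called lower (-1.12). Between ROI classes in Des+ segments 6 of 19 were called lower, against 3.79% of all genes, and 0 higher, with a median of -0.31 against 0.02 for all genes. The lowest were *Col3a1* at -1.17 (SE 0.23, adjusted p = 0.000856 by limma) and *Col6a2* at -0.94, and the highest *Loxl2* at 0.35 and *Fn1* at 0.23, neither called. The calls of *Col3a1* and *Col6a2* were lost without liver 2, 3 or 4 (adjusted p up to 0.391 and 0.356), with the 10th percentile subtracted and without the shallow Des+ segments, and that of *Col3a1* also by DESeq2. In Else segments 3 of 19 were called lower (*Col3a1*, *Col1a1* and *Col14a1*), against 3.29% of all genes, and 0 higher.

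Of 38 receptors and ligands that bind decorin, lumican or biglycan, 4 were in the table. *Ccn2*, the growth factor CTGF, was called higher in MarcoHi Des+ segments, by 0.78 (SE 0.21, adjusted p = 0.0147 by limma), against the direction of *Dcn*, *Lum* and *Bgn*. Of all 607 genes 4 were called higher and 23 lower in this comparison. *Itgb1*, an integrin subunit, was at -0.02, *Lrp1*, an endocytic receptor, at -0.11 and *Tgfbr3*, the TGF-beta co-receptor betaglycan, at -0.38, none of them called. Of 14 proteases described as cleaving these proteoglycans 4 were present, and *Mmp2*, a gelatinase, was called lower by -0.71 (SE 0.21, adjusted p = 0.0375). The calls of *Ccn2* (0.67 to 0.89) and *Mmp2* (-0.86 to -0.56) were lost when any 1 liver was left out. Both were also lost with medians over segments, with the 10th percentile subtracted and without the shallow Des+ segments. That of *Ccn2* was lost with means of log2 values and by the mixed model too, and that of *Mmp2* with re-centred segments, with counts divided by their sum and without the block. Each was called in 7 of its alternatives, 16 for *Ccn2* and 17 for *Mmp2*. *Mmp14* was at -0.21, *Htra1* at 0.12 and *Adamts1* at 0.56, not called.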

How the data were processed

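Segments of fixed liver sections were profiled on the GeoMx platform. The deposited values are a signal per gene and segment that the authors made from probe counts by scaling each segment to a common 75th percentile (Q3), after sequencing reads were demultiplexed with bcl2fastq 2.20.0.422 (submitters' processing notes, genome build mm10). The GeoMx NGS Pipeline then matched reads to probes and collapsed duplicates by molecular identifier, and segments and probes were filtered by quality. The authors subset the data to stellate cell genes with a single-cell reference. The table used here holds 607 genes, fewer than the subset their text describes, and the difference was not traced. Dividing each segment by its smallest increment turned 96513 of 96513 values into whole reads recovered as counts, within a relative tolerance of 1e-06. The depth limits precision most in Marco-IBA+ segments, and a count of 1 was the lowest value.

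Groups came from sample titles and treatment labels. For 1 ROI of liver 4 (3 segments) the class came from the titles, since the library name has none. Segments are not independent, so they were averaged per liver, segment type and ROI class, and log2(mean + 1) was tested with limma 3.58.1 in R 4.3.3 with liver as a block. The liver was taken from the prefix of the titles. ROI numbers repeat across livers and paired nothing in the tests. Within a liver and ROI class they matched segments of the same ROI for the correlations between masks. Adjusted p is the Benjamini-Hochberg value over all genes (threshold 0.05), and fold changes on this scale understate changes of low genes. Between members, exact two-sided sign-flip tests over livers were used, with all 16 sign assignments enumerated. The limma p-values rest on the spread between these 4 livers, drawn toward a spread shared by all genes. In the Des+ fit of ROI classes the shared part weighed most, with 2 residual and 37.24 prior degrees of freedom. The fits of ROI classes in Des+, Else and Marco+IBA+ segments gave each pair of livers with the same label its own difference. The gap between the pairs is thus not in their SE. edgeR 4.0.16 and DESeq2 1.42.0 on recovered counts, a linear mixed model (lme4 1.1.37, lmerTest 3.1.3), pseudocounts of 0 and 5, a filter at a mean count of 5, other averaging and scaling, subtraction of the 10th percentile, 1 ROI class alone, no block and leaving out each liver were alternatives. Leaving out Des+ segments under 2000 counts was chosen after seeing the data. The fits were also run on simulated counts. These were drawn for each segment on its own without differences between livers, so they could not check the spread between livers.

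The members and lists were chosen with earlier results of these data known. Genes named are the members, *Prelp*, the 5 genes nearest to each member by Pearson correlation, and the 2 highest and 2 lowest of each list in the ROI class comparison of Des+ segments. *Des*, *Reln*, *Marco*, *Tagln*, *Myl9*, *Dpt*, *Eln*, *Col1a1* and *Col14a1* were named outside this rule, after their values were seen. Gene positions are from RefSeq (GRCm38.p6).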

Additional observations from a re-analysis of the deposited data

Results flagged for a closer look

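Of 93 groups of 4 to 10 values of *Dcn*, *Lum* and *Bgn* examined, 7 held a value set apart from the rest by a gap large against the group's range, and chance alone marks about 1 group in 20. The *Dcn* mean of MarcoHi Des+ segments was highest in liver 2, at 7.65 on the log2 scale. In Marco+IBA+ segments of MarcoHi ROIs, *Dcn* had a low value of 20.1 in liver 1 (20 counts, the others 37.9 to 47.8), a low value of 28.1 in liver 2 (14 counts, the others 40.3 to 53.6) and a high value of 65.2 in liver 3 (90 counts, the others at most 39.7). *Lum* in a Marco-IBA+ segment of liver 3 stood at 8.69 against 13.0 in the other 4, each of the 5 resting on 1 count.

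A single MarcoHi ROI of liver 1 was set apart for *Bgn* in both of its masks. Its Des+ segment held the lowest *Bgn* value of 6, 26.1 on 3 counts (the others 122 to 183), and its Else segment the highest of 6, 26.9 on 160 counts (the others 13.1 to 13.8). The total count of these segments was 1591 and 85630. The difference between ROI classes of *Lum* was lower in Des+ than in Else segments by -1.05 on the log2 scale, by a test of the difference itself.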

How the results depend on the processing

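Most values of *Dcn*, *Lum* and *Bgn* kept direction and call. All differences here are log2, and Hi minus Lo stands for MarcoHi minus MarcoLo. With the 10th percentile of each segment subtracted, calls were lost for Hi minus Lo in Des+ segments over all livers (*Dcn* -1.11, *Lum* -1.55) and in the livers labelled treated CCl4 (-1.42, -1.92), in Else segments (*Dcn* -0.76, *Bgn* -0.41), for Des+ against Else (*Lum* -1.32), for *Lum* in Marco-IBA+ minus Else (0.19) and for *Bgn* in Marco+IBA+ minus Marco-IBA+ (-0.45), where *Lum* turned to 0.27. Without Des+ segments under 2000 counts, Hi minus Lo lost its calls over all livers (-1.07 and -1.12) and in the livers labelled treated CCl4 (-1.29 and -1.32 for *Dcn* and *Lum*). DESeq2 did not call *Lum* in the latter (-1.51). Hi minus Lo in Marco+IBA+ segments was called by edgeR (*Dcn* -0.61, *Lum* -0.65, *Bgn* -0.65), DESeq2 (*Dcn* -0.59, *Bgn* -0.64) and the mixed model (*Dcn* -0.73, *Bgn* -0.69). *Bgn* in Des+ segments was called with a pseudocount of 5 (-0.55), by edgeR (-0.51) and by the mixed model (-0.63). With that pseudocount *Dcn* was called in Des+ against Else (-0.58), and with medians over segments *Lum* was called in Else segments (-0.19). Marco+IBA+ minus Marco-IBA+ was not called for *Lum* (MarcoLo ROIs -0.46, edgeR -0.35, DESeq2 -0.44) or *Bgn* (MarcoLo ROIs -0.075, edgeR -0.18, DESeq2 -0.27, mixed model -0.21), and for *Dcn* it was called in MarcoHi ROIs (-0.55) and 0.0070 in MarcoLo ROIs. In MarcoHi ROIs alone calls were lost for *Lum* in Des+ minus Marco-IBA+ (0.41) and Marco-IBA+ minus Else (0.43) and for *Bgn* in Des+ minus Marco-IBA+ (0.66).

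Values near 0 changed sign. *Lum* in Marco+IBA+ minus Else was -0.078 with means of log2 values, -0.036 with medians, -0.11 re-centred, -0.15 in MarcoHi ROIs and -0.038 by the mixed model. By liver label, *Dcn* in Des+ segments was 0.18 in MarcoLo ROIs, 0.051 by edgeR and 0.063 by DESeq2, and -0.0082 in Else segments of MarcoHi ROIs. *Lum* in Des+ segments was -0.0056 with medians and -0.16 in MarcoHi ROIs. *Bgn* there was -0.0077 with means of log2 values, -0.23 in MarcoLo ROIs, -0.0040 by edgeR and -0.022 without the shallow segments. Else segments by label were called by DESeq2 (*Lum* 0.41, *Bgn* 0.26) and the mixed model (*Bgn* 0.27). *Bgn* was -0.12 by edgeR for Hi minus Lo in Marco-IBA+ segments and -0.076 with means of log2 values for Des+ against Marco+IBA+. In Des+ Hi minus Lo, *Papss2* was 0.064 by edgeR and 0.021 by DESeq2, *Htra1* -0.068 without the shallow segments, and *Itgb1* 0.022 with medians, 0.094 re-centred, 0.039 on counts divided by their sum, 0.0056 without the ROI of unnamed class, 0.015 by edgeR and 0.011 by DESeq2.

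Without liver as a replicate block, Hi minus Lo in Else segments stayed at -0.56 for *Dcn* and -0.30 for *Bgn* and was not called. With each liver left out in turn, Des+ Hi minus Lo ran from -1.19 to -0.96 for *Dcn* and from -1.19 to -1.17 for *Lum* (calls lost without liver 2 or 4), and in the livers labelled treated CCl4 from -1.38 to -1.36 and from -1.43 to -1.42 (lost without any liver). Marco+IBA+ minus Marco-IBA+ ran from -0.41 to -6.8e-05 for *Dcn* (called without liver 2) and from -0.65 to -0.47 for *Bgn* (lost without liver 4). Uncalled differences ran from -0.36 to 0.12 for *Dcn*, from -0.012 to 0.19 for *Lum* and from -0.0093 to 0.029 for *Bgn* by label in Des+ segments, from -0.028 to 0.52 for *Dcn* by label in Else segments, and from -0.077 to 0.12 for *Lum* in Marco+IBA+ minus Else. Hi minus Lo in Marco-IBA+ segments ran from -0.81 to 0.10 for *Lum* and from -0.31 to 0.88 for *Bgn*, and Des+ against Marco+IBA+ for *Bgn* from -0.19 to 0.34. Over the same fits *Prelp* ran from -0.49 to 0.11, *Papss2* from -0.50 to 0.28, *Lrp1* from -0.23 to 0.021, *Itgb1* from -0.16 to 0.11 and *Htra1* from -0.014 to 0.25. The cause of these changes was not tested.

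Genes called numbered 27 in Des+ Hi minus Lo (0 to 43 over the alternatives), 14 in the livers labelled treated CCl4 (0 to 27), 31 in Else (0 to 83), 3 in Marco+IBA+ (0 to 33) and 12 for Des+ against Else (0 to 25). Between segment types they numbered 316 for Des+ minus Marco+IBA+ (166 to 438), 274 for Des+ minus Marco-IBA+ (120 to 332), 241 for Marco+IBA+ minus Else (176 to 389), 444 for Marco-IBA+ minus Else (292 to 471) and 274 for Marco+IBA+ minus Marco-IBA+ (63 to 351).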
